A study of Oryza sativa Japonica Group with 6 samples.

Results

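Non-symbiotic haemoglobins were represented on the array by 2 probes, which were found by their cDNA accession among the gene probes. AK064054 is described in the array design as hemoglobin 1 of rice. AK073898 carries a best-match description, hemoglobin Hb2 of wheat. They were the only probes with a globin in their description, 2 of 21495. RefSeq's rice gene table (assembly ASM3414082v1) lists 4 genes of this family, NSHB1, NSHB2, NSHB3 and NSHB4, of which NSHB1, NSHB3 and NSHB4 lie next to each other. It held neither cDNA accession, so no locus or position is assigned to the probes here. Binding of transcripts from a similar family member cannot be told apart from the named one.

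Non-symbiotic haemoglobins are plant relatives of the oxygen carriers of animal blood and of legume nodules. They hold oxygen too tightly to carry it. In barley, alfalfa and Arabidopsis they turn nitric oxide into nitrate at very low oxygen, which uses NADH or NADPH, and their transcripts are known to rise with oxygen shortage and with nitrate. Rice seeds that germinate under water extend the coleoptile, the sheath around the first leaf, on the energy of ethanol fermentation. Alcohol dehydrogenase regenerates NAD+ in that pathway.

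Coleoptiles of wild-type rice and of the rad mutant, which the series title describes by its reduced adh activity, were compared on 6 two-colour arrays. Both genotypes were of the cultivar Kinmaze, and both had germinated submerged, with 15 seeds in a bottle of 1 L water. Coleoptile tissue was laser-microdissected from frozen sections of 8 µm, and its RNA was amplified linearly. There were 3 replicates, each measured with the mutant in Cy5 and again with the mutant in Cy3, and the values of the 2 arrays of a replicate were averaged. Age and the lesion behind the mutant are not in the labels, nor is whether replicates came from separate cultures. P-values therefore cover only the scatter among the samples at hand, and this scatter may be technical. Per channel, 90.4% to 95.7% of gene probes gave a signal well above background. Precision is limited by the number of arrays. Replicate 3 stood somewhat apart: across probes its ratios correlated with those of replicates 1 and 2 at r = 0.755 and 0.840, against 0.885 between these, and probes are not independent replicates. The haemoglobin values are therefore also given without replicate 3.

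Neither haemoglobin cDNA passed the test between genotypes over the 3 replicates, and their values over the replicates differed. AK064054 was higher in the mutant in replicates 1 and 2 and lower in replicate 3, by similar amounts on both arrays of each replicate. AK073898 was higher in the mutant on all 6 arrays, by little in replicate 3, and its adjusted p lay just above the threshold of 0.05. So 0 of 2 probes were called by limma with Benjamini-Hochberg adjustment, against 24.7% called of all 19947 probes tested. At an unadjusted p-value under 0.05 it was 1 of 2, against 38.3% of all probes. By direction, 14.6% of all probes were called higher and 10.1% lower, or 21.4% and 16.9% at an unadjusted p-value under 0.05.

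AK064054, the rice hemoglobin 1 cDNA, gave a bright spot. Its mean intensity lay between 2946 and 17279 on the scanner's linear scale, or 64.0 to 330.2 times the local background. It was well above background in both channels on 6 of 6 arrays and was saturated on 0. After normalization its level in the wild type was 6304, 5613 and 7711 in replicates 1, 2 and 3. In the mutant it was 9926, 10402 and 5354. The mutant thus held both the highest levels and the lowest, and the genotypes overlapped: in ascending order the levels were those of mutant replicate 3, wild-type replicates 2, 1 and 3, and mutant replicates 1 and 2. The highest level was 1.94 times the lowest among the mutant samples and 1.37 times among the wild-type samples. Geometric means were 8207 in the mutant (SD 0.53 on the log2 scale, n = 3) and 6486 in the wild type (SD 0.23).

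The log2 ratio of AK064054, mutant over wild type, in replicate 1 was 0.70 when Cy5 labelled the mutant and 0.61 when Cy3 did. In replicate 2 it was 0.97 and 0.81, and in replicate 3 it was -0.52 and -0.53. As fold changes, the mutant stood 1.57-fold and 1.85-fold above the wild type in replicates 1 and 2, whereas in replicate 3 the wild type stood 1.44-fold above the mutant. Arrays of the same replicate differed by 0.10, 0.15 and 0.0036, so the turn of sign in replicate 3 was present in both dye orientations and was larger than the gap within any pair. The scanner software's own error of a single log2 ratio was 0.17 to 0.18 on these arrays, and its p-value was under 0.05 on 6 of 6 arrays, the arrays of replicate 3 included. Over the 3 replicates the mean was 0.34 ± 0.76 (SD, n = 3), a 1.27-fold difference with a 95% interval from 0.718-fold to 2.23-fold (limma adjusted p = 0.468).

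**Figure D1:**
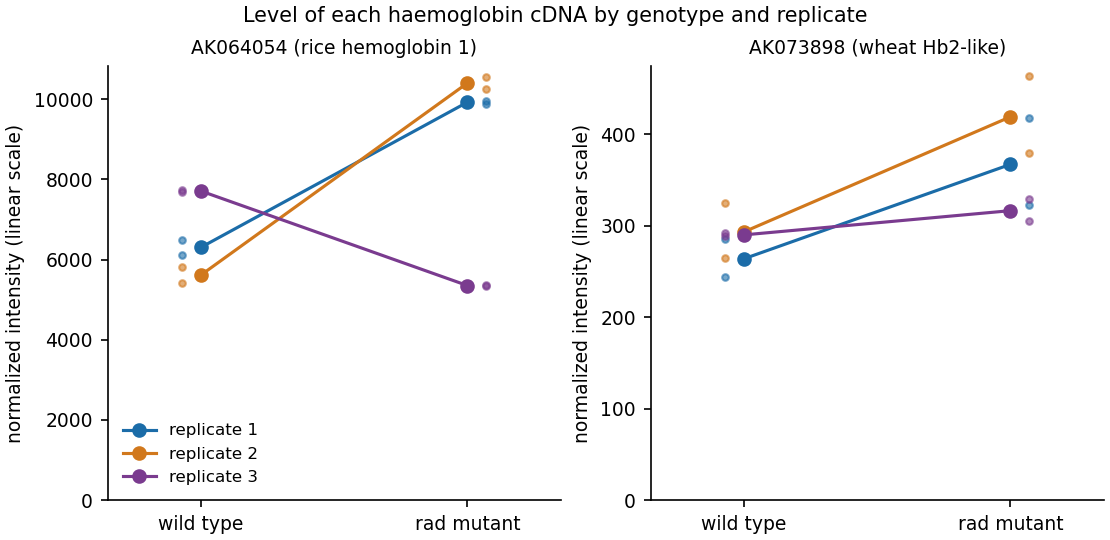
Normalized intensity of AK064054 (left) and AK073898 (right) in wild type and rad mutant, on a linear scale from 0. Large points are the means (on the log scale) of the 2 arrays of a replicate, joined by a line, and small points are single arrays. AK064054 rises from wild type to mutant in replicates 1 and 2 and falls from 7711 to 5354 in replicate 3, whereas all 3 lines of AK073898 rise.

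The mean of AK064054 rested on which replicates entered it. Without replicate 3 it was 0.77 and was called (limma adjusted p = 0.0109). Without replicate 1 it was 0.18 and without replicate 2 it was 0.06, neither of them called (adjusted p = 0.817 and 0.926). The spread over replicates was wide for this array set: 99.6% of the probes tested had a smaller SD. Of 19947 probes 3154 had a replicate 3 opposite in sign to the other replicates, mostly by small amounts. AK064054 was the single probe, 1 of 19947, that was at least 0.5 higher in replicates 1 and 2 and at least 0.5 lower in replicate 3. That cut was set after its values had been seen, and 5 probes showed the reverse pattern.

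**Figure D2:**
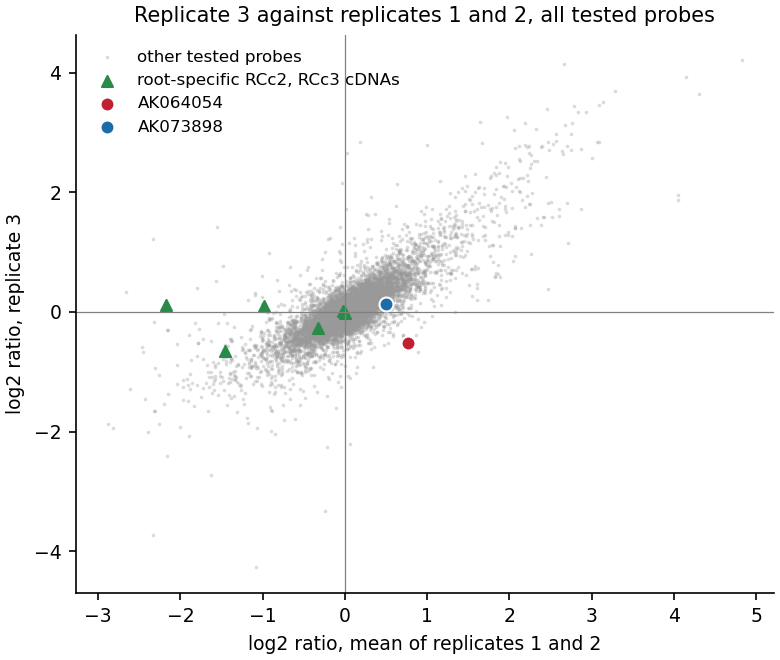
Log2 ratio of mutant over wild type in replicate 3 (vertical) against the mean of replicates 1 and 2 (horizontal) for all 19947 probes tested. AK064054 lies at the lower right of the zero lines, at -0.53 in replicate 3, and AK073898 lies at 0.13 in replicate 3. The root-specific cDNAs are drawn as triangles, with AK063684 farthest to the left among them.

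The summed level of root-specific transcripts, set by the brighter probes, ran across the replicates in the opposite sense to AK064054. The markers of root tissue on the array were cDNAs of RCc2 and RCc3, proteins found mainly in roots, and 6 of the 9 were tested after the filters on dim and outlier spots. Their summed normalized level in the mutant was 23392, 24072 and 60638 in replicates 1, 2 and 3, against 78143, 68792 and 58262 in the wild type. The mutant thus held 0.299 and 0.350 times the wild-type level in replicates 1 and 2 but 1.04 times in replicate 3. Without AK063684, an RCc3 cDNA saturated in the wild type on 3 arrays and left out after its values were seen, these ratios were 0.491, 0.525 and 0.978. AK063684 itself was at -2.32, -2.03 and 0.11 on the log2 scale, and its size may be understated. An RCc2 cDNA (AK102086) was at -1.02, -0.94 and 0.10. Of the 6 probes 2 were called lower in limma (AK062381 at -1.19 ± 0.47 and AK063090 at -0.31 ± 0.06). AK063090, at -0.27, -0.38 and -0.28 in replicates 1, 2 and 3, did not follow the order of the sum. With the replicate number as a block, which counts the 2 arrays of a pair as partly independent, 4 were called lower. The added ones were AK063684 (adjusted p = 0.0208) and AK102086 (adjusted p = 0.0319). These 4 cDNAs were well above background in both genotypes on 6 of 6 arrays. The other probes (AK109149 and AK108560) differed little in any replicate, with means of -0.0059 and -0.0038. The part of root tissue in the haemoglobin values was not tested, and in such tissue samples fewer cells of a type and less RNA per cell cannot be told apart.

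Among marker lists of other tissues, several but not all glutelin cDNAs had their lowest ratio in replicate 3, as AK064054 did. Glutelins are storage proteins of the endosperm. The ratios in replicates 1, 2 and 3 were -0.08, -0.10 and -1.16 for AK064478, 0.11, -0.21 and -0.87 for AK107285, and -0.03, -0.08 and -0.39 for AK107343. None of these was called (limma adjusted p = 0.241 to 0.311). A further glutelin cDNA, AK107314, read -0.14, -0.07 and -0.21 (limma adjusted p = 0.0901). AK101299, which shares its description with AK064478, went otherwise, at 0.23, -0.07 and 0.08. An oleosin cDNA (AK103379) and a prolamin cDNA (AK108254) of the storage list had their highest ratio in replicate 3. The part of storage tissue in the haemoglobin values was not tested. Summed levels of 39 photosynthesis probes in the mutant were 0.849, 0.832 and 0.854 times those of the wild type in replicates 1, 2 and 3, with 1 probe called higher (3 with the replicate number as a block) and 11 lower. For 11 storage protein probes of endosperm and embryo the ratios were 1.02, 0.967 and 0.869, with 0 called in limma and 1 at an unadjusted p-value under 0.05. For 14 alpha-amylase probes, which mark aleurone and scutellum, they were 0.951, 0.938 and 0.926, with 2 called lower. Over all probes 14.6% were called higher and 10.1% lower, so the amylase count lay near the share of all probes. No list of markers of the coleoptile itself was available, so the labelled tissue was not checked directly.

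AK073898, the cDNA like wheat hemoglobin Hb2, gave a much dimmer spot. Its mean intensity was 185 to 712, or 3.49 to 13.6 times the local background, well above background in both channels on 6 of 6 arrays. Its normalized level in the wild type was 264, 293 and 290 in replicates 1, 2 and 3. In the mutant it was 367, 419 and 316. Averaged over dyes, the mutant levels all lay above the wild-type levels, with the mutant of replicate 3 closest to them. On single arrays the genotypes did overlap, from 244 to 325 in the wild type and from 305 to 463 in the mutant. Geometric means were 365 in the mutant (SD 0.20 on the log2 scale) and 282 in the wild type (SD 0.08).

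The log2 ratio of AK073898 in replicate 1 was 0.55 when Cy5 labelled the mutant and 0.40 when Cy3 did. It was 0.51 and 0.52 in replicate 2, and 0.17 and 0.08 in replicate 3. Replicates 1 and 2 thus differed by 0.039, less than the 2 arrays of replicate 1, and replicate 3 lay below both. The scanner software's own log2 ratios were larger, at 0.70 and 0.56 in replicate 1, 0.62 and 0.65 in replicate 2, and 0.21 and 0.12 in replicate 3. Its error of a single such ratio was 0.20 to 0.25. The scanner's p-value was under 0.05 on the 4 arrays of replicates 1 and 2 and not on those of replicate 3. The ratios from limma had a mean over replicates of 0.37 ± 0.21 (SD, n = 3), or 1.29-fold higher in the mutant (limma adjusted p = 0.0519). The 95% interval, from 1.09-fold to 1.54-fold, is not adjusted for the number of probes.

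Whether AK073898 counted as changed turned on the fit. It was called in the fit of the 6 arrays with the replicate number as a random block (adjusted p = 0.00408), and with a dye term beside the replicate block (adjusted p = 0.00806). That fit estimated 1 correlation for the arrays of a replicate over all probes, at 0.206, and at 0.632 with the dye term. For AK073898 the arrays of a replicate differed by 0.0071 to 0.14, against an SD of 0.21 over replicates. The block fit thus counts technical repeats as partly independent, and its p-values may be too small. The call was made without replicate 3, where the mean was 0.50 (limma adjusted p = 0.0106), and missed without replicate 1 (0.32, adjusted p = 0.218) and without replicate 2 (0.30, adjusted p = 0.211). The size depended on the treatment of background, since the spot is dim. The scanner's processed signals gave 0.47 and normexp with no offset gave 0.45, each with an adjusted p close to the threshold (0.0528 and 0.0496).

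**Figure D3:**
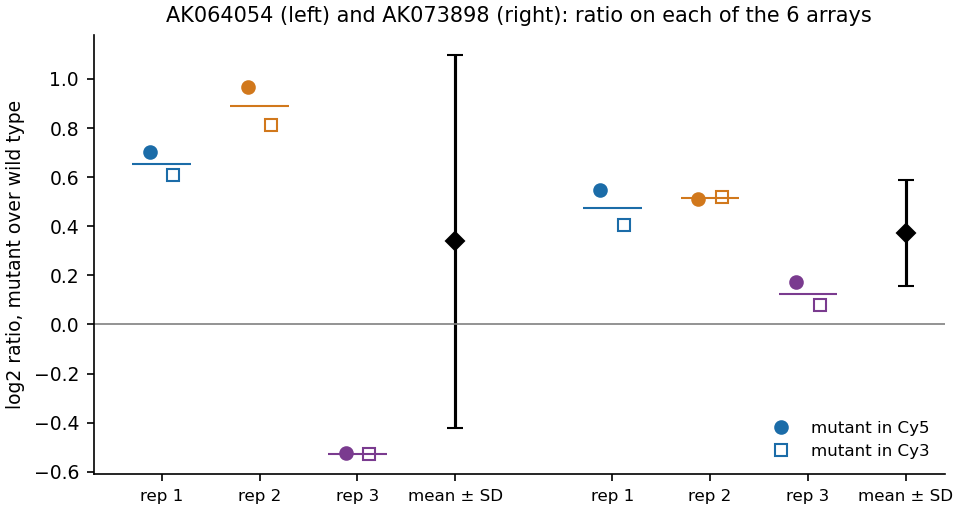
Log2 ratio of mutant over wild type on each of the 6 arrays for AK064054 (left) and AK073898 (right). Filled circles have the mutant in Cy5 and open squares in Cy3, short lines are replicate means, and diamonds with bars are the mean ± SD over 3 replicates (0.34 ± 0.76 and 0.37 ± 0.21). Arrays of a pair sit close together, and replicate 3 is the lowest for both cDNAs.

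The haemoglobin cDNAs were compared with each other within replicates. The log2 ratio of AK064054 minus that of AK073898 was 0.18, 0.38 and -0.65 in replicates 1, 2 and 3. Both cDNAs were higher in the mutant in replicates 1 and 2 and both had their lowest ratio in replicate 3, where their signs differed. The mean difference was -0.03 ± 0.55 (SD, n = 3; exact two-sided sign-flip permutation p = 1, where 0.25 is the smallest this design allows). A difference of either sign between the responses of the cDNAs was therefore not resolved. Their ratios differed by a root mean square of 0.45 over the 6 arrays.

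Other cDNAs with a named product that followed each member most closely were picked by the smallest root mean square difference of the log2 ratio over the 6 arrays, among 8243 probes. This is a description of likeness in 6 arrays of 3 replicates. For AK064054 the nearest lay at 0.234, a nonspecific lipid transfer protein like that of barley (AK062667), which read 0.46, 0.70 and -0.37 in replicates 1, 2 and 3. OsCPX1, a cationic peroxidase (AK102307), lay at 0.257 and read 0.35, 0.75 and -0.33. A cDNA like oat phytochrome (AK072482) read 0.67, 0.38 and -0.52. A cDNA like aconitase of pumpkin (AK067183), an enzyme of the citric acid cycle, and a rice ascorbate peroxidase (AK061841) lay at 0.307 and 0.315, and both were near 0 in replicate 3 (-0.05 each). None of these 5 passed the test over the 3 replicates (limma adjusted p = 0.140 to 0.641), whereas without replicate 3 all 5 did (adjusted p = 0.00591 to 0.0447). AK064054 did the same, a likeness that follows largely from the choice of the nearest probes. With the replicate number as a block AK067183 and AK061841 were called (adjusted p = 0.0246 and 0.0329).

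For AK073898 the nearest cDNAs were far closer, at 0.0645 to 0.0772. They were a putative protein kinase (AK109607), a glucose-6-phosphate/phosphate translocator (AK060577), which carries sugar phosphate into plastids, and a putative DEAD/DEAH box RNA helicase (AK068068). A putative poly(A) polymerase (AK103143) and a glutathione S-transferase (AK073086) followed. Their mean log2 ratios lay between 0.33 and 0.39, near the 0.37 of AK073898, as the choice of the nearest probes fixes. Of the 5, 4 were called higher (limma adjusted p = 0.0193 to 0.0418), and AK073086 was not (adjusted p = 0.0568, or 0.0118 with the replicate number as a block).

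The enzymes around haemoglobin were taken from lists of wording in the descriptions. Of their 106 tested probes apart from the haemoglobins 20 were higher and 7 lower, with a median log2 ratio of -0.0005, against 14.6% higher, 10.1% lower and a median of -0.01 over all probes. Without replicate 1 these counts in limma were 4 and 0 (21 and 12 at an unadjusted p-value under 0.05), against 958 and 533 over all probes. Without replicate 2 they were 5 and 2, against 755 and 429 over all probes. With the replicate number as a block they were 25 and 16, against 3869 and 2912 over all probes. Calls by name in the following are those of the 3 replicates together. Of the 26 called cDNAs covered by the naming rule, 4 were also called without replicate 1, 7 without replicate 2 and 20 without replicate 3.

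On the side of nitrate, which can be reduced to nitrite and on to nitric oxide when oxygen is short, 4 of 10 probes for nitrate and nitrite reduction rose and 0 fell (5 and 0 at an unadjusted p-value under 0.05 in limma). With the replicate number as a block 1 fell. The 4 higher were a nitrate reductase like that of barley (AK102363, 0.56 ± 0.19) and genes of its molybdenum cofactor: cDNAs like CNX2 (AK100565 and AK065402, 0.83 ± 0.23 and 0.66 ± 0.13) and like Cnx1 (AK070456, 0.48 ± 0.14). Both CNX2-like cDNAs share a description and may be 1 gene. Another barley-like nitrate reductase cDNA (AK102178) read 0.31, 0.40 and 0.10 in replicates 1, 2 and 3 and was not called (adjusted p = 0.0569, or 0.0164 with the replicate number as a block), and it is named here after its values were seen. Among 14 nitrate transporter probes 3 fell and 0 rose (5 and 0 at an unadjusted p-value under 0.05 in limma), among them rice NRT1 (AK066920, -0.59 ± 0.26) and 2 cDNAs like tobacco NRT1.1 (AK070077 at -0.83 ± 0.32 and AK068409 at -0.51 ± 0.17).

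Among 4 probes listed by wording for nitric oxide turnover 1 fell and 1 rose (2 and 1 with the replicate number as a block). The list holds AK064654 and AK107950, described as protein inhibitors of neuronal nitric oxide synthase and not as enzymes that make or break down nitric oxide. The lower call added by the block was AK107950 (adjusted p = 0.0323). The lower cDNA over the 3 replicates was a glutathione-dependent formaldehyde dehydrogenase (AK099733, -0.56 ± 0.09), the enzyme known in Arabidopsis to break down S-nitrosoglutathione, a store of nitric oxide. The higher was a cDNA like a human cytochrome b5 fused to its reductase (AK103406, 0.25 ± 0.08), which entered the list only by its name, flavohemoprotein. Of 9 probes listed by wording for monodehydroascorbate, cytochrome b5 and ferredoxin-NADP+ reductases, 1 rose and 2 fell, and with the replicate number as a block 2 rose. Monodehydroascorbate reductase is an enzyme that returns oxidised barley haemoglobin to its working state. Which of the listed cDNAs here would do so was not tested. The cDNA AK102459, whose description names no cell compartment, was higher by 1.67, 1.89 and 1.11 in replicates 1, 2 and 3 (1.56 ± 0.40, or limma adjusted p = 0.00817). The cytosolic monodehydroascorbate reductase (AK071558, -0.27 ± 0.05) and a cytochrome b5 reductase (AK071859, -0.52 ± 0.12) were lower. In the rest of the ascorbate-glutathione cycle 1 of 14 rose, a glutathione reductase (AK108799, 0.82 ± 0.15), and 0 fell (1 each at an unadjusted p-value under 0.05 in limma, and 2 and 1 with the replicate number as a block).

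Haem itself is the cofactor that binds oxygen in these proteins. Of 9 probes listed by wording for its synthesis 3 rose and 1 fell, and with the replicate number as a block 2 fell. The 3 include AK072497, an enzyme of a side branch that entered the list by its wording. A ferrochelatase, which inserts the iron in the last step, was at 0.45 ± 0.05 (AK068174), a protoporphyrinogen oxidase at 0.26 ± 0.06 (AK108365) and a uroporphyrinogen decarboxylase-like cDNA at -0.22 ± 0.07 (AK070859). The highest was uroporphyrinogen III methyltransferase (AK072497, 1.45 ± 0.75), which leads away from haem to sirohaem, the cofactor of nitrite reductase. It read 1.88, 1.89 and 0.58 in replicates 1, 2 and 3. Both heme oxygenase cDNAs, for enzymes that break haem down, were not called in limma, with 0 of 2 at an unadjusted p-value under 0.05 (AK104955 at 0.19 ± 0.24 and AK073283 at -0.03 ± 0.07).

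Among 3 probes of alternative respiration AOX1a (AK064040), an alternative oxidase that passes electrons to oxygen around the cytochrome pathway, rose by 0.95 ± 0.49, with 1.09, 1.36 and 0.40 in replicates 1, 2 and 3. AOX1b (AK107376, 0.02 ± 0.01) and an external NADH dehydrogenase (AK103572, -0.07 ± 0.05) were not called. The promoter of the rice haemoglobin gene HB2 is known to respond to a cytokinin response regulator of Arabidopsis. Of 28 cytokinin and response regulator probes 5 rose and 0 fell (6 and 2 at an unadjusted p-value under 0.05 in limma). Over all probes 14.6% were called higher and 10.1% lower, so the count of higher probes lay near the share of all probes. The 5 higher were 2 cDNAs like a tobacco cytokinin-regulated kinase (AK106429 at 0.35 ± 0.05 and AK109788 at 0.22 ± 0.09) and 3 like maize response regulators (AK111864 at 0.28 ± 0.13, AK072736 at 0.20 ± 0.06 and AK100530 at 0.16 ± 0.03). With the replicate number as a block AK100530 was not called (adjusted p = 0.120), and 3 probes of this list were lower. AK100530 was called with a dye term beside the block (adjusted p = 0.0139). In limma it was called on Cy5-labelled mutant arrays alone (adjusted p = 0.0112) but not on Cy3-labelled ones (adjusted p = 0.805). Of the cDNAs that share its description, AK101165 read -0.16 (limma adjusted p = 0.0556), and AK065276 and AK099581 read 0.05 each. None of these was called. In ethanol fermentation 4 of 13 rose and 0 fell (6 and 0 at an unadjusted p-value under 0.05 in limma), and the RRJ2 pyruvate decarboxylase (AK100501) ran 0.87, 1.46 and 2.19 in replicates 1, 2 and 3. The pyruvate decarboxylase AK069905 read 0.74, 1.14 and 0.48, with its lowest value in replicate 3 as for both haemoglobins, and ADH1 (AK069330) read 0.14, 0.26 and 0.24. A further pyruvate decarboxylase (AK100678), saturated on part of the arrays, was called in the fit of replicate means but not with the replicate number as a block (adjusted p = 0.184). With a dye term beside the block it was called (adjusted p = 0.00149). In limma it was called on Cy3-labelled mutant arrays alone (adjusted p = 0.00191) but not on Cy5-labelled ones (adjusted p = 0.543).

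**Figure D4:**
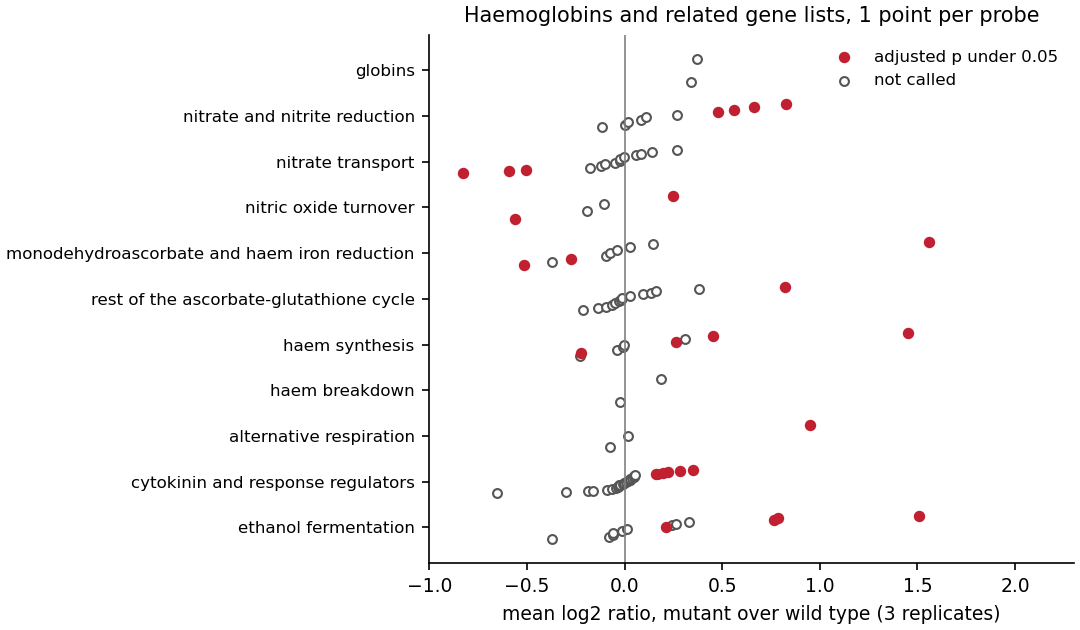
Log2 ratio, mutant over wild type, as the mean of 3 replicates for the haemoglobins and each related gene list, with 1 point per tested probe. Filled points passed the test at an adjusted p under 0.05 and open points did not. Both haemoglobins, in the top row, lie open at 0.34 and 0.37, and the highest filled points include a monodehydroascorbate reductase at 1.56 and a uroporphyrinogen III methyltransferase at 1.45.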

How the data were processed

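Per the file headers, the authors read 6 arrays of Agilent design 012106 (22575 spots, 21495 gene probes, 6 slides) with Feature Extraction 8.5.1.1. The deposited files give the mean intensity per spot and median local background intensity per channel, processed intensities (background surface subtracted, dye-normalized), a log10 ratio of Cy5 over Cy3, its error (used as a score) and its p-value from the scanner's error model. The authors' deposited value table holds log10 ratios. It equals the scanner's to within 5e-06, with the sign turned on colour-swapped arrays, so it runs as mutant over wild type.

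Ratios were computed with limma 3.58.1 in R 4.3.3: normexp background correction (offset 50), loess within arrays with control spots at weight 0. Probes well above background in the mutant or in the wild type on at least 4 of 6 arrays were kept (20213); 266 with an outlier spot were left out, leaving 19947. The dyes in the labels set the sign, with the mutant in the numerator, and the arrays of a colour-swap pair averaged, since these repeat the same replicate. An intercept was fitted with eBayes (two-sided, 4.26 total degrees of freedom, Benjamini-Hochberg over all probes) and tested on simulated data. Levels are separate channels after Aquantile. Pairing comes from the titles; deviations of same-numbered arrays correlated at 0.663 to 0.840, others at -0.662 to -0.115. Where the fit with the replicate number as a block changed a call named in the text, or a count by over 1.5 times, its value stands beside it. That fit counts the 2 arrays of a pair as partly independent, so its p-values may be too small.

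Members, lists and tests were chosen with earlier results of these data known. Gene names are the files' descriptions. Named genes were the members, 5 nearest probes each, and of each list all members up to 4, otherwise the 4 with the smallest p. The text leaves out some of these. Cinnamyl, allyl, short-chain and tasselseed dehydrogenases were taken out of the fermentation list by description, as were methyltransferases and binding proteins, steroleosin and amylase inhibitors out of the tissue lists.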

Additional observations from a re-analysis of the deposited data

How the results depend on the processing

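AK064054 was uncalled under the alternatives tried except without replicate 3, with means of 0.064 to 0.77 over the fits that leave out a replicate, and no alternative turned its sign; median centring brought it to 0.20 (adjusted p = 0.642). AK073898 kept its direction throughout, at 0.30 to 0.50 over those fits, and was called with normexp with no offset (0.45), median centring (0.39, adjusted p = 0.0389), Cy5-labelled mutant arrays alone (0.41, adjusted p = 0.0302), eBayes with trend and robust (0.37, adjusted p = 0.0452), without replicate 3 and in both fits with the replicate block (0.37). On Cy3-labelled mutant arrays it was 0.33 (adjusted p = 0.0691). Leaving out a replicate gave 755 to 2746 probes higher, 429 to 1827 lower, and 4 to 18 higher and 0 to 7 lower in the pathway lists. In the replicate block fit 16 pathway probes and 2912 of all probes were lower, and with a dye term 14 and 2693. The difference between the cDNAs was -0.24 to 0.28 over fits without a replicate. Of 450 counts for single lists under alternatives 371 lay within 1.5 times the reported count. Slide as a block was not run, since each slide held 1 array. The dimmer spot of AK073898 (3.49 to 13.6 times background) had the larger scanner error per array, whereas over replicates AK064054 had the wider interval.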
